A study of Brassica rapa with 5 samples.

Results

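The 54 genes described here were lower in Brassica rapa leaves under Fe deficiency and stayed within 2-fold of normal supply in the Zn deficiency, Zn excess and Cd exposure treatments. They were chosen from the measured levels themselves. A gene had to reach a mean of at least 5 TPM (tags per 1000000 clean tags) over the 5 deposited tables. Its log2 of (TPM + 1) had to be at least 1 lower under Fe deficiency than under normal supply, and to differ by less than 1 under each of the other 3 treatments. Of 29183 genes listed in any table, 10807 reached the minimum and 54 met the whole rule. The values that chose these genes are given as a description, without a test.

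The study used digital gene expression, which counts short sequence tags per gene, on leaves of accession R-o-18 grown in hydroponics with 0.5-strength Hoagland solution. All plants first spent 14 days in the normal solution (3 µM Fe, 2 µM Zn, no Cd). For a further 7 days they received 0.05 µM Fe (Fe deficiency), 0.005 µM Zn (Zn deficiency), 50 µM Zn (Zn excess) or 1 µM Cd (Cd exposure), or stayed in the normal solution (normal supply). The first pair of expanded leaves was taken, and each condition had 3 replicates of 3 plants. Each condition is 1 deposited table that holds the means of its 3 libraries, so a condition is 1 sample here. The libraries held between 5575675 and 5997201 clean tags, recovered as described below, and 54.03% (Cd exposure) to 58.6% (Fe deficiency) of clean tags lay in genes. No gene of the tables carries a name in the sources used here, so leaf identity was not checked against marker genes.

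Iron is a cofactor of haem proteins and iron-sulfur proteins, and most of the iron of a leaf is in its chloroplasts, where the photosynthetic electron transport chain and chlorophyll synthesis depend on it. Plants short of iron are known to raise genes for iron uptake and redistribution and to lower genes for iron storage, such as ferritins, and for iron-demanding proteins. None of the 54 identifiers could be placed in these processes, since 0 of them matched an entry of the RefSeq gene table for the species (assembly CAAS_Brap_v3.01). The genes are therefore described by identifier, level and pattern. In leaf tissue taken whole, fewer cells of a type and less transcript per cell cannot be told apart.

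The genes spanned a wide range of levels. Under Fe deficiency they stood between 1.49 and 672 TPM (median 6.70), and under normal supply between 5.91 and 1401 TPM (median 16.8). TPM counts tags and is not divided by gene length. Under normal supply 31 of them were below 20 TPM, 18 lay between 20 and 100 TPM and 5 were above 100 TPM. Their median of the mean level over the tables was 14.5 TPM, the same to this precision as that of all 10807 genes. Tags divided among several matching genes show as a tag number that is no multiple of 1 tag divided by 3. No table showed them in 33 of the 54 genes (61.1%), against 62.5% of all genes tested. Divided tags that add up to a whole number stay hidden, so these shares are upper limits.

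**Figure D1:**
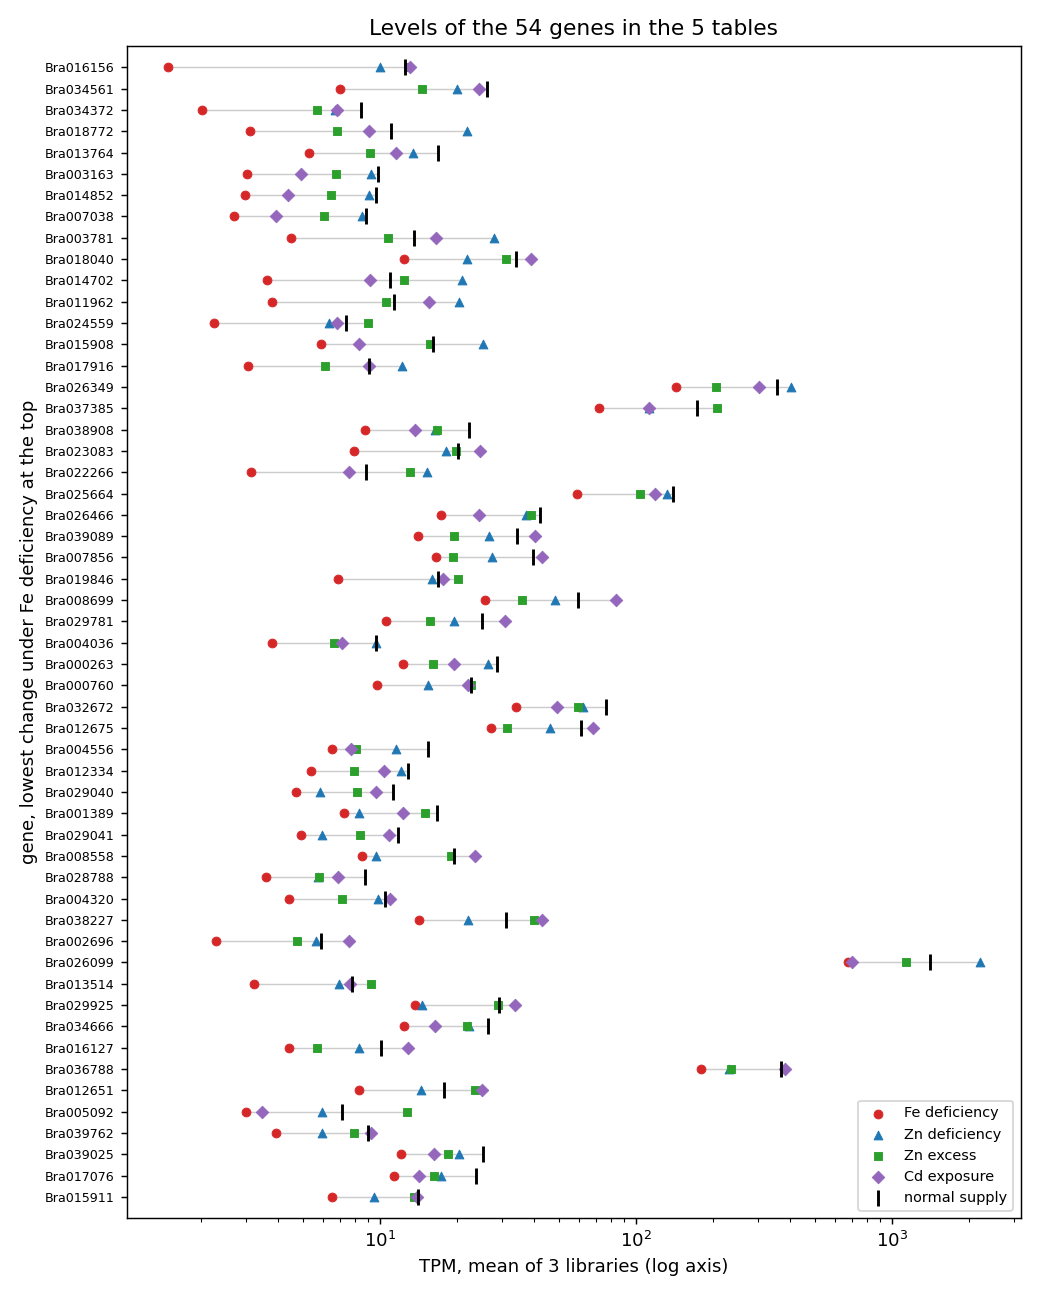
Mean TPM of the 54 genes (log axis) in the 5 tables, 1 row a gene, ordered by the change under Fe deficiency, with the lowest change at the top. The Fe deficiency point is the leftmost in all 54 rows, from 1.49 TPM for Bra016156 to 672 TPM for Bra026099.

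The reductions under Fe deficiency were mostly close to the threshold. The median log2 change of the 54 genes was -1.16, where the median of all 10807 genes was 0.17, a difference of -1.33. Of all genes tested, 1.29% were at least 2-fold lower under Fe deficiency (139 genes), and the rule kept 0.5%. Only 18 of the 54 had a log2 change of -1.25 or less, 5 of -1.5 or less and 1, Bra016156, of -2 or less. The standard errors (SE) of the changes, from the part of the spread between libraries that the deposited columns hold, ranged from 0.18 to 0.42 (median 0.24). The threshold value of -1 lay within 2 SE of the Fe deficiency change in 49 of the 54.

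Bra016156 stood apart from the others. It had 1.49 TPM under Fe deficiency, 9.98 in Zn deficiency, 12.9 in Zn excess, 13.2 in Cd exposure and 12.5 with normal supply. Its TPM was thus 8.43-fold lower under Fe deficiency than under normal supply (log2 change of TPM + 1 -2.44, SE 0.32), while the other 4 table means lay between 9.98 and 13.2 TPM. Those means hide a wide spread between libraries, since the smallest coefficient of variation that the columns allow was 63.0% under Zn deficiency and 36.5% under Cd exposure. Its tags numbered 26 over the 3 libraries under Fe deficiency and 219 under normal supply. The exact Poisson 95% intervals, which cover counting error only, are 0.97 to 2.18 TPM under Fe deficiency and 10.9 to 14.3 TPM under normal supply.

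The next in size were 2 genes with smaller differences. Bra034561 had 7.00 TPM under Fe deficiency, 20.0 in Zn deficiency, 14.6 in Zn excess, 24.3 in Cd exposure and 26.3 with normal supply (log2 change under Fe deficiency -1.77, SE 0.23). Bra034372 had 2.03 TPM under Fe deficiency, 6.68 in Zn deficiency, 5.69 in Zn excess, 6.77 in Cd exposure and 8.44 with normal supply (log2 change under Fe deficiency -1.64, SE 0.24). In both, Zn excess was the lowest of the tables other than Fe deficiency.

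Bra013764 had 5.27 TPM under Fe deficiency, 13.5 in Zn deficiency, 9.15 in Zn excess, 11.6 in Cd exposure and 16.9 with normal supply. Bra018040 had 12.5 TPM under Fe deficiency, 21.9 in Zn deficiency, 31.1 in Zn excess, 38.8 in Cd exposure and 34.1 with normal supply. Normal supply was thus the highest table for Bra013764 and Cd exposure for Bra018040, as in 22 and 17 of the 54 genes, while Zn deficiency was the highest in 10 and Zn excess in 5. The same split over all genes tested was not taken. The rule favours genes high under normal supply and bars Fe deficiency as the highest, so these counts are descriptions.

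The 5 genes above 100 TPM under normal supply carried most of the tags of the members. Bra026099 had 672 TPM under Fe deficiency, 2202 in Zn deficiency, 1135 in Zn excess, 700 in Cd exposure and 1401 with normal supply. Its level under Cd exposure was nearly as low as under Fe deficiency, and its log2 changes of -1.06 (SE 0.21) and -0.9992 (SE 0.18) lay on either side of the threshold. Bra036788 had 180.0 TPM under Fe deficiency, 232 in Zn deficiency, 235 in Zn excess, 383 in Cd exposure and 368 with normal supply. Bra026349 had 144 TPM under Fe deficiency, 404 in Zn deficiency, 205 in Zn excess, 302 in Cd exposure and 356 with normal supply. The lowest level after Fe deficiency was that of Zn deficiency in Bra036788 and that of Zn excess in Bra026349.

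Bra037385 had 71.5 TPM under Fe deficiency, 113 in Zn deficiency, 206 in Zn excess, 112 in Cd exposure and 172 with normal supply. Bra025664 had 58.6 TPM under Fe deficiency, 132 in Zn deficiency, 104.06 in Zn excess, 118 in Cd exposure and 140 TPM with normal supply. Of these 5 genes, Bra025664 alone was within 0.5 of normal supply on the log2 scale in all 3 other treatments, with changes of -0.08, -0.42 and -0.24. The next 3 by level under normal supply, Bra032672 (34.02 TPM under Fe deficiency, 76.5 under normal supply), Bra012675 (27.2 TPM under Fe deficiency, 60.7 under normal supply) and Bra008699 (25.7 TPM under Fe deficiency, 59.4 under normal supply), had log2 changes of -1.13 to -1.18 under Fe deficiency.

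The 2 deposited columns made single libraries visible for part of the genes. The tag column and the TPM column weight the 3 libraries of a table differently, so together with the library totals they allow only certain whole tag numbers in each library. Under Fe deficiency exactly 1 answer existed for 28 of the 54 genes, and under normal supply for 11, all of them among the 28. Among genes with sums of 10 to 30 tags, 92.1% (Fe deficiency) and 92.3% (normal supply) had an answer, against at most 5.87% and 10.98% with a library total moved by 0.5%. The others may hold tags divided among genes, so some answers can be accidental. The library totals were themselves refined on sums of up to 30 tags, so this check is not independent of them. Apart from Bra016156 (26 tags under Fe deficiency), the solved members had larger sums than those checked. These reached 171 tags under Fe deficiency and ran from 103 to 173 under normal supply. How often an answer is accidental at such sums was not tested.

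In 10 of the 11 genes every Fe deficiency library lay below every normal supply library, where 4.23% of the 2008 genes with 1 answer in both tables did. The members were chosen on this contrast, so nothing is read from that difference. Bra028788 had the tightest values under normal supply, with 3.55, 4.19 and 3.00 TPM in the Fe deficiency libraries and 8.51, 8.30 and 9.42 TPM in the normal supply libraries (means of 3.58 ± 0.60 under Fe deficiency and 8.74 ± 0.59 under normal supply, SD, n = 3 each). Bra034372 had 1.24, 2.18 and 2.67 TPM under Fe deficiency and 10.1, 7.96 and 7.23 TPM under normal supply (means of 2.03 ± 0.73 under Fe deficiency and 8.44 ± 1.497 under normal supply, SD, n = 3 each). In both genes the groups were well apart.

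Bra005092 was the exception, with 2.84, 5.53 and 0.67 TPM in the Fe deficiency libraries and 4.08, 11.4 and 5.88 TPM in the normal supply libraries. The highest Fe deficiency library exceeded the lowest normal supply library. Of the 10 genes whose groups did not overlap, Bra013514 and Bra002696 had the narrowest gaps. Bra013514 had 3.01, 5.87 and 0.83 TPM under Fe deficiency and 6.56, 9.83 and 7.06 TPM under normal supply. Bra002696 had 0.89, 3.19 and 2.83 TPM under Fe deficiency and 6.74, 6.95 and 4.04 TPM under normal supply. In both, the highest Fe deficiency library lay less than 1 TPM below the lowest normal supply library. Over the 11 genes the coefficient of variation between libraries ranged from 13.0% to 80.9% under Fe deficiency (median 34.7%) and from 6.75% to 60.1% under normal supply (median 27.5%). The SE of the change computed from these recovered libraries had a median of 0.35, against 0.25 for the SE used elsewhere, and exceeded it in 6 of the 11. It was 0.64 in place of 0.27 in Bra005092 and 0.52 in place of 0.21 in Bra013514, so the SE given for a single gene can be well below its library spread.

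**Figure D2:**
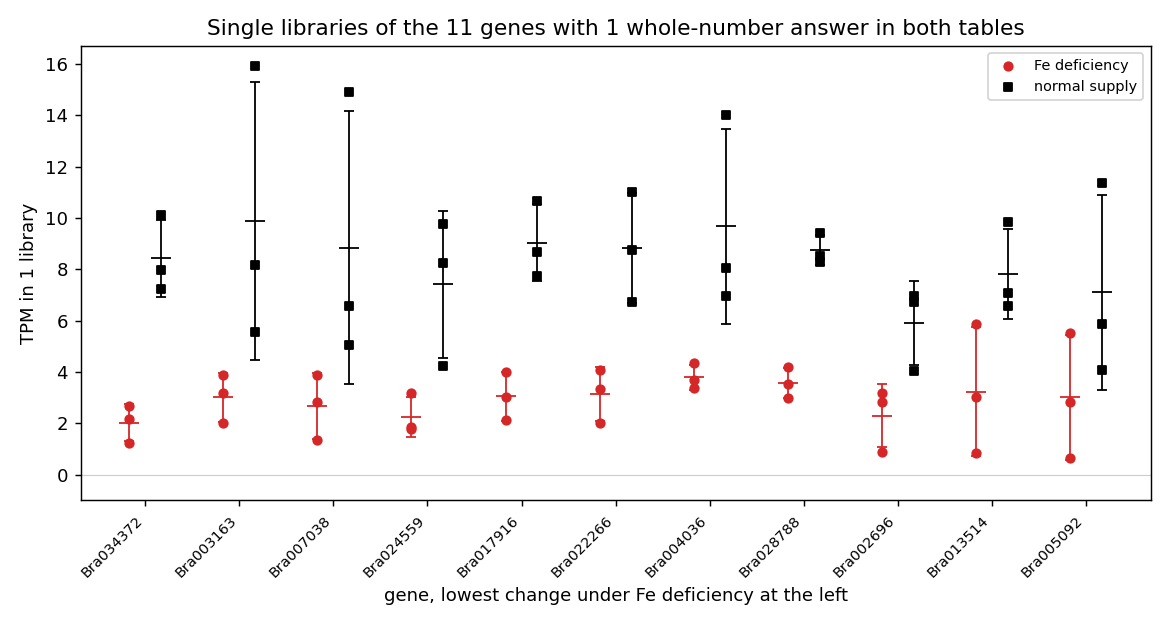
TPM in single libraries of the 11 genes with 1 whole-number answer in both tables, Fe deficiency (red circles) beside normal supply (black squares), with the mean and SD of 3 libraries. The points of the 2 conditions overlap only in Bra005092, at the right.

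In all 28 genes with 1 answer under Fe deficiency, each of the 3 libraries was below the normal supply mean, where 18.2% of the 2408 genes with 1 answer there had this. In 18 of the 28 each library was at least 2-fold below that mean, where 2.03% of the 2408 were. The genes were chosen for a low Fe deficiency mean, so nothing is read from either count. The highest library was over 2 times the lowest in 13 of the 28, where it was in 23.5% of the 2408, and over 4 times in 3, Bra005092, Bra013514 and Bra038908. The 28 and the 2408 were not matched for level. Counting error widens this ratio at low levels, and its part was not tested. Bra038908 had 16.0, 3.86 and 6.50 TPM in the libraries under Fe deficiency and a mean of 22.3 TPM under normal supply, so its first library lay much closer to the normal supply mean than the other 2. For the 40 genes with at least 1 answer in both tables, 17 had every Fe deficiency library below every normal supply library under every answer that the columns allow, Bra016156 among them. Its libraries had 1.95, 1.01 and 1.501 TPM under Fe deficiency and none could be below 7.96 TPM under normal supply. Of the 7262 genes with answers in both tables, 1.58% were below in this way under every answer. The members were chosen on this contrast, so nothing is read from that difference either. A gene with many allowed answers can fail this without overlapping libraries.

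The highest value did not come from the same Fe deficiency library throughout. Of the 28 genes, 6 had their highest value in the library with the lowest total, 10 in the middle one and 12 in the one with the highest total. Over all 54, the difference between libraries that the columns hold had one sign in 28 genes and the other in 26. Its median size, as a share of the level, was 24.8% under Fe deficiency and 12.3% under normal supply, against 15.9% and 13.1% for all genes tested. The members are also at lower levels under Fe deficiency, where counting error is larger, and the part of this in the wider spread was not tested.

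In many of the genes, a second treatment also came close to the 2-fold limit. The lowest of the 3 other changes was -0.5 or less in 38 of the 54 genes, -0.75 or less in 20 and -0.9 or less in 9, where 27.5%, 10.8% and 6.17% of all genes tested had a change this low in at least 1 of the 3. The value of -1 lay within 2 SE of the change in at least 1 other treatment in 43 of 54. It did so in 28 genes under Zn excess, 21 under Zn deficiency and 13 under Cd exposure. These counts also follow the SE, with member medians of 0.28, 0.33 and 0.21 in the same order, so they do not rank the treatments. By the change alone, the lowest member values were -0.9971 under Zn excess, -0.95 under Zn deficiency and -0.9992 under Cd exposure. The same counts over all genes were not taken. The members' median change was -0.29 for Zn deficiency, -0.41 for Zn excess and -0.15 for Cd exposure, against -0.01, 0.07 and -0.07 for all genes tested. All 4 changes share the normal supply table, and the rule favours genes that are high in it, so the lower values elsewhere are no independent result.

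**Figure D3:**
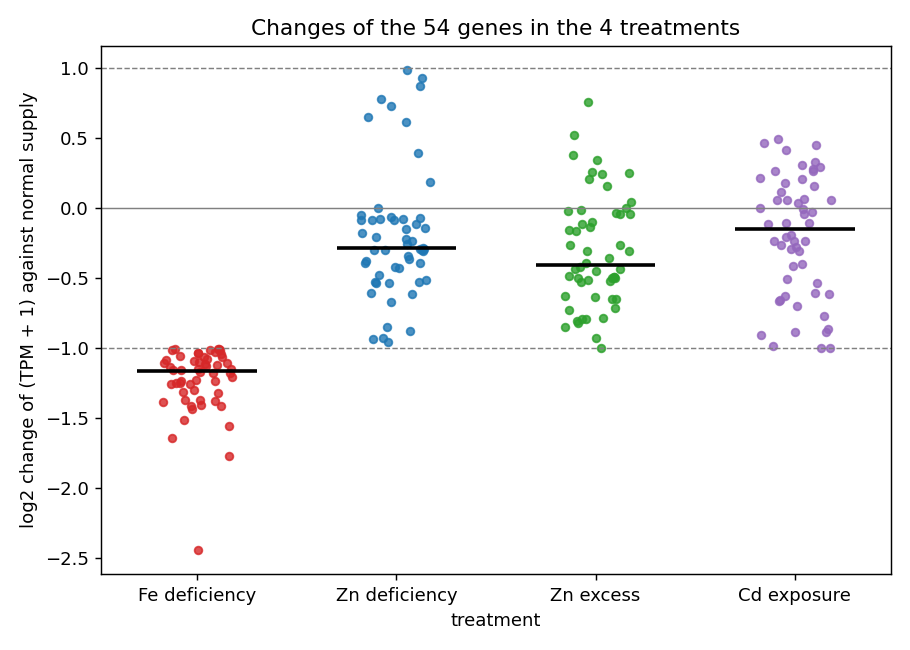
Log2 changes of (TPM + 1) against normal supply for the 54 genes in the 4 treatments; each point is a gene, the black bar the median, and the dashed lines the 2-fold limits. All genes lie at or below -1 under Fe deficiency, as chosen, and the medians of the others are -0.29, -0.41 and -0.15.

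Under Zn excess 18 members (33.3%) were lower by at least 0.5 on the log2 scale, where 4.99% of all genes were. The count was 13 (24.1%) under Zn deficiency, against 10.1% of all genes, and 16 (29.6%) under Cd exposure, against 16.3%. Higher values by this much were found in 7 members (13.0%) with low Zn, in 2 with Zn excess (3.70%) and in 0 with Cd exposure, against 14.1%, 7.59% and 5.71% of all genes. These shares are descriptions, since the rule bounds the same changes.

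Fe deficiency was the lowest of the 5 tables in all 54 genes, which the rule itself fixes. How far below it lay was less alike. Against the mean of the other 3 treatments on the log2 scale, Fe deficiency was lower by between 0.41 and 2.38 (median -0.91, where all genes had a median of 0.17), and 20 of the 54 were lower by at least 1, where 0.759% of all genes were. On the plain TPM scale, 13 genes were at least 2-fold below each of the other 4 tables, where 0.204% of all genes were. The rule used the same levels, so these counts are descriptions. The ratio of Fe deficiency to the lowest of those tables was smallest in Bra016156 (0.149), Bra034372 (0.357), Bra024559 (0.358), Bra011962 (0.359) and Bra014702 (0.395).

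By their pattern in the other treatments the genes formed 4 sets, split at 0.5 on the log2 scale after the values were seen. The first set, 12 genes within 0.5 of normal supply in all 3, held Bra016156, Bra034372, Bra024559, Bra023083, Bra025664, Bra019846, Bra004036, Bra004320, Bra038227, Bra002696, Bra013514 and Bra012651. Bra019846 was the closest to normal supply on the low side, with 6.86 TPM under Fe deficiency, 15.9 in Zn deficiency, 20.1 in Zn excess, 17.6 in Cd exposure and 16.8 with normal supply. Its lowest change other than that under Fe deficiency was -0.07. Bra023083 was similar, with 7.90 TPM under Fe deficiency, 18.2 in Zn deficiency, 19.9 in Zn excess, 24.7 in Cd exposure and 20.2 with normal supply.

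Another 4 genes, Bra003781, Bra014702, Bra011962 and Bra022266, were higher by at least 0.5 under Zn deficiency and lower by that much in no treatment but Fe deficiency. Bra003781 had 4.50 TPM under Fe deficiency, 28.0 in Zn deficiency, 10.8 in Zn excess, 16.6 in Cd exposure and 13.6 with normal supply, the highest change of any member under Zn deficiency (0.99, SE 0.37). Bra014702 had 3.63 TPM under Fe deficiency, 20.9 in Zn deficiency, 12.4 in Zn excess, 9.18 in Cd exposure and 10.99 with normal supply. In both, the 2 metal deficiencies stood at opposite ends of the 5 tables. Bra011962, with divided tags seen in 4 tables, had 3.81 TPM under Fe deficiency and 20.3 under Zn deficiency, against 11.4 under normal supply.

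Another 4 genes differed from normal supply by at least 0.5 in both directions. Bra018772 had 3.10 TPM under Fe deficiency, 21.95 in Zn deficiency, 6.80 in Zn excess, 9.07 in Cd exposure and 11.1 with normal supply, and Bra015908 and Bra026099 were likewise higher under Zn deficiency but lower under Cd exposure. Bra005092 was at 3.01 TPM under Fe deficiency, 12.7 in Zn excess, 3.46 in Cd exposure and 7.11 with normal supply, with the highest change of the members under Zn excess (0.76, SE 0.29). Its TPM under Fe deficiency was 0.87 times that under Cd exposure.

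The other 34 genes were lower by at least 0.5 in at least 1 further treatment and higher by that much in none. At the edges, Bra007856 had 16.6 TPM under Fe deficiency and 19.4 under Zn excess, against 39.7 under normal supply, a log2 change under Zn excess of -0.9971 (SE 0.31). Bra029925 had 13.7 TPM under Fe deficiency and 14.6 under Zn deficiency, against 29.2 under normal supply (log2 change under Zn deficiency -0.95, SE 0.30). These levels differed from those under Fe deficiency by less than the changes' SE. Bra008699 had the highest change of the members under Cd exposure, with 83.9 TPM there and 25.7 under Fe deficiency, against 59.4 under normal supply (0.49, SE 0.17).

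**Figure D4:**
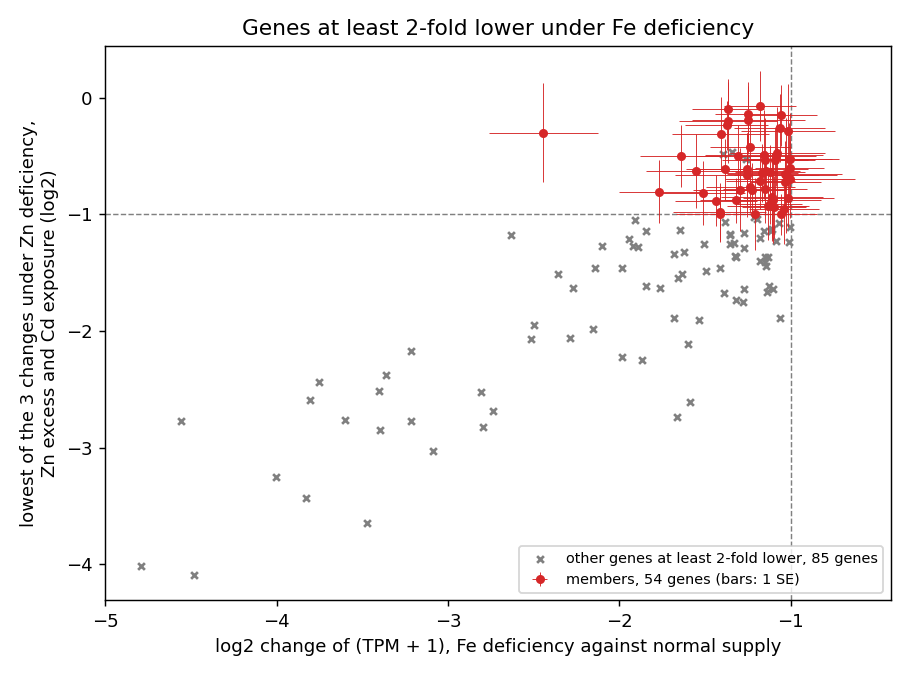
The 139 genes at least 2-fold lower under Fe deficiency, with the log2 change of (TPM + 1) under Fe deficiency on the horizontal axis and the lowest of the 3 other changes on the vertical axis; red points are the 54 members with bars of 1 SE, grey crosses the 85 others. The members gather near -1 on the horizontal axis, where the crosses reach -4.79. On the vertical axis the members spread from -0.9992 (Bra026099) to -0.07 (Bra019846).

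The members held 38.8% of the 139 genes that were at least 2-fold lower under Fe deficiency, and the smaller changes among them. The 85 genes left out had log2 changes under Fe deficiency with a median of -1.63 (lowest -4.79), against -1.16 for the members, and 27 of them had a change of -2 or less, against 1 of the 54. Of the 85, 61 were also at least 2-fold lower under Zn excess, 20 under Cd exposure and 10 under Zn deficiency, where 1.11%, 2.92% and 0.601% of all genes were. At least 2-fold higher were 7 under Zn deficiency and 1 under Cd exposure, where 2.66% and 0.231% of all genes were. The 85 were left out because they changed at least 2-fold in another treatment, so nothing is read from their excess over these shares. By the same rule turned to another treatment, 42 genes (0.389%) were lower under Zn deficiency alone, 35 (0.324%) under Zn excess alone and 191 (1.77%) under Cd exposure alone.

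Just inside the threshold were Bra015911 (6.50 TPM under Fe deficiency, 14.0 under normal supply), Bra017076 (11.3 TPM under Fe deficiency, 23.7 under normal supply), Bra039025 (12.1 TPM under Fe deficiency, 25.2 under normal supply) and Bra039762 (3.94 TPM under Fe deficiency, 8.96 under normal supply), with log2 changes of -1.004 to -1.011. Just outside were Bra005743 (23.5 TPM under Fe deficiency, 47.9 under normal supply), Bra004187 (8.79 TPM under Fe deficiency, 18.3 under normal supply), Bra002645 (21.1 TPM under Fe deficiency, 42.6 under normal supply) and Bra010419 (14.9 TPM under Fe deficiency, 30.2 under normal supply), with log2 changes of -0.9999 to -0.9762. The lowest SE of a member's change, 0.18, exceeded the gap between the nearest genes on either side.

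Some members were so alike in level that they may not be separate measurements. Of 1431 pairs of members, 3 differed by at most 0.2 on the log2 TPM scale in every table. The share among pairs of all genes was not computed, and the rule itself makes members alike in pattern. They were Bra003163 with Bra014852, Bra007038 with Bra014852, and Bra029040 with Bra029041. Bra003163, Bra014852 and Bra007038 had 3.03, 2.99 and 2.69 TPM under Fe deficiency, 9.27, 9.11 and 8.53 in Zn deficiency, 6.72, 6.44 and 6.03 in Zn excess, 4.90, 4.39 and 3.92 in Cd exposure and 9.88, 9.64 and 8.84 under normal supply. Their order was the same in all 5 tables, and all 3 had divided tags under Zn deficiency.

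Single libraries could be compared in part. Under Fe deficiency, in order of library total, Bra003163 had 22, 12 and 19 tags, Bra014852 had 27, 8 and 17 and Bra007038 had 22, 8 and 17. Under normal supply Bra003163 had 46, 94 and 33 tags and Bra007038 had 37, 88 and 30, so the middle library held over 2 times the tags of either other in both genes. For Bra014852 no whole-number answer existed under normal supply. Whether the same tags were counted for more than 1 of these genes was not tested. The pair Bra029040 and Bra029041, whose identifiers are consecutive, had 4.70 and 4.93 TPM under Fe deficiency, 5.82 and 5.94 in Zn deficiency, 8.11 and 8.34 in Zn excess, 9.68 and 10.8 in Cd exposure and 11.3 and 11.8 under normal supply. Both had divided tags seen in the same 2 tables, Fe deficiency and normal supply.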

How the data were processed

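Leaf libraries of 5 conditions were analysed from 1 deposited table per condition. Per the file headers, the columns are gene identifier, clean tag number and TPM. The tag numbers as deposited are expected counts, not whole, and have the form of means of 3 libraries. The deposited TPM values are tags per 1000000 clean tags, as normalised by the authors. Aligner, build and annotation: not given in the sources used here. Genes absent from a table count as 0 there. The members, lists and limits were chosen with earlier results of these data known.

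Changes are log2 of (TPM + 1) in a treatment minus normal supply. A gene was called at 2-fold or more, with no test, since each condition is 1 sample. Library totals were taken from the TPM of genes with 1 tag in 1 library and refined on genes with sums of up to 30 tags. Whole tags per library were then searched so that both columns matched within their rounding. Sums over 6000 tags and divided tags were not solved. Standard errors came from the contrast of both columns, scaled by its trend on level, averaged over the 5 tables and moderated with limma 3.58.1 (R 4.3.3; 12.1 degrees of freedom). Each table gives only 1 contrast of its 3 libraries. Under Fe deficiency and normal supply, whose middle and highest totals are close, it misses most of a difference between those 2 libraries; in the other tables it misses most of a deviation of the middle library. The errors also understate the spread of a gene that varies in 1 condition. Both steps were tried on simulated data with whole tags only and the same spread setting for all genes. Divided tags and a spread that differs by gene or condition were not covered, nor were the larger tag sums of the search. Python 3.11.15 with pandas 2.3.3 was used for the rest. At 26 to 11875 tags over the 3 libraries under Fe deficiency, counting error is largest for the lowest genes.

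The genes named are the 12 with the lowest change under Fe deficiency, the 8 with the highest normal supply TPM, the extremes of each other treatment, the 4 on each side of the threshold and the 5 with the lowest ratio to the other tables; other names complete a set or a count of 5 or fewer and were chosen after their values were seen. The planned lists of pathway and cell type genes, paralogs and promoter motifs were not used, because the identifiers matched 0 entries of the gene table and no sequences were given. Alternatives were other pseudocounts, size factors, the tag column, other filters and other limits.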

Additional observations from a re-analysis of the deposited data

How the results depend on the processing

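The number of genes lower under Fe deficiency alone moved with nearly every setting. With median-of-ratios size factors, which lower the Fe deficiency levels by taking out the general shift of 0.17, 106 genes met the rule, 53 of the 54 among them, and with the tag column scaled to tags in genes 88 did, again with 53 of the 54. A pseudocount of 0.1 TPM gave 70 genes, with 48 of the 54. With a pseudocount of 5 TPM 23 met it, 15 of them members, and the median log2 change of the 54 under Fe deficiency was -0.89. Without a filter on low values there were 96, with a minimum mean of 20 TPM 16, and among genes with no divided tags seen 33. Requiring under 1.5-fold in the other treatments left 17, requiring at least 3-fold under Fe deficiency left 3 (Bra016156, Bra034561 and Bra034372), and requiring a change of -1 also against the mean of the other treatments left 20. The last 6 change by construction which genes can qualify; for the pseudocounts and the tag column the cause was not tested. Under both pseudocounts, the size factors and the tag column, the members' median change ran from -0.32 to -0.21 for Zn deficiency. For Zn excess it ran from -0.47 to -0.33. The Cd exposure median, -0.15 as reported, was -0.04 with the size factors and -0.08 with the tag column. Each of the 3 medians moved by less than the median SE of a single member's change (0.33 for Zn deficiency, 0.28 for Zn excess, 0.21 for Cd exposure). That SE is not an error of a median over 54 genes, so it is a loose limit. Of the 216 values of single members under Fe deficiency with those 4 settings, 178 stayed within 1 SE. Depth limits the lowest members most, 24 of which had under 100 tags over the 3 Fe deficiency libraries. No paired analysis was possible because the 3 libraries of a condition are averaged in its table. For the 11 members with recovered libraries in both tables, an alternative chosen after seeing the data left out each library in turn. The log2 changes under Fe deficiency then ranged from -1.80 to -0.58, and 6 of the 11 passed above -1 at least once. Without the middle normal supply library the change was -0.58 in Bra005092, -0.88 in Bra007038, -0.88 in Bra013514, -0.96 in Bra003163 and -0.95 in Bra002696, and without the one with the lowest total it was -0.83 in Bra004036 and -0.98 in Bra002696. Without the Fe deficiency library with the lowest total it was -0.78 in Bra002696 and -0.98 in Bra005092, and without the one with the highest total -0.64 in Bra005092 and -0.70 in Bra013514. These 11 lay between 5.91 and 9.88 TPM under normal supply, and it was not run for the other 43 members.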
